A study of Mus musculus with 51 samples.

Results

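Unsorted mammary tumors of mice that switch on an Etv6-NTRK3 fusion in the breast epithelium differed widely in their level of fibroblast genes, and the other genes measured are described here along that difference. Of 51 arrays in the series, 23 held unsorted primary tumors, 22 tumors of 14 mice in all, with tumor CR115 measured on 2 arrays that were averaged. Each tumor was given a score, the mean level of Dcn, Lum, Dpt and Pdgfra, and the 11 tumors of highest score (the stroma-rich set, from 7 mice) were set against the 11 of lowest score (the stroma-poor set, from 10 mice). Because the score was read from the same arrays, the sets were selected on measured values. Differences between them are descriptions, given with their standard error (SE) and with no test.

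The tumors arose in Wap-Cre;Etv6-NTRK3 mice, in which Cre recombinase turns on a conditional knockin allele of the fusion and a Rosa-Stop-lacZ reporter. The Wap promoter is active in milk-producing epithelium, which places the fusion in epithelial cells. The other samples used for comparison were 4 unsorted and 7 sorted transplanted tumors grown in RAG2-/- hosts, 8 sorted primary tumors, 4 sorted hyperplasias and 5 unsorted wild-type glands. Sorted samples are lacZ-positive cells, the cells in which Cre has acted, and RAG2-/- hosts lack mature B and T cells. The unsorted transplanted tumors stem from mice CR90 and CR115 (2 hosts each), and 3 of the sorted ones from mouse D279. Ages and strain background are not given in the sources used here.

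Stroma is the supporting tissue between epithelial cells. Its fibroblasts secrete fibrillar collagens, which assemble into fibres with small proteoglycans such as decorin and lumican, and it also holds blood vessels, macrophages and, in the mammary gland, abundant fat cells. In tumors, fibroblasts and matrix can be plentiful or nearly absent, and matrix-degrading enzymes and growth factors of stromal cells are part of what is called a reactive stroma. In bulk tissue, fewer cells of a type and less RNA per cell cannot be told apart.

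Levels are log2 of the array intensity after intensities below 32 were set to 32, so a level of 5 is the floor. That floor was chosen as a setting and does not measure the background of the arrays. Decorin (Dcn), a proteoglycan that binds collagen fibrils, ranged over 6.53 to 11.16 (median 8.50) in the stroma-rich tumors and over 5.00 to 6.10 (median 5.23) in the stroma-poor ones. Lumican (Lum), a relative of decorin, ranged over 5.72 to 9.30 (median 7.09) and 5.00 to 5.58 (median 5.00). Dermatopontin (Dpt), a small matrix protein of skin and fat stroma, ranged over 5.00 to 9.12 (median 5.76) and 5.00 to 5.41 (median 5.00), and Pdgfra, the PDGF receptor of fibroblasts, over 5.00 to 7.74 (median 5.64) and 5.00 to 5.36 (median 5.06). Only Dcn and Lum were separate between the sets. The score ran from 9.23 in tumor C117T6 and 8.18 in B459L down to 5.00 in C393T1 and C395T2, with medians of 6.54 and 5.10. The tumors on either side of the split were CR115 at 5.75 and C231T1 at 5.56, a gap of 0.19. The 2 arrays of CR115 scored 6.36 and 5.14, on opposite sides of the split, and correlated at r = 0.987 over 15150 genes. All 4 tumors of mouse C117 and both of mouse D14 were stroma-rich, both of mouse D254 were stroma-poor, and mice B459, C395 and D206 had tumors in both sets.

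**Figure D1:**
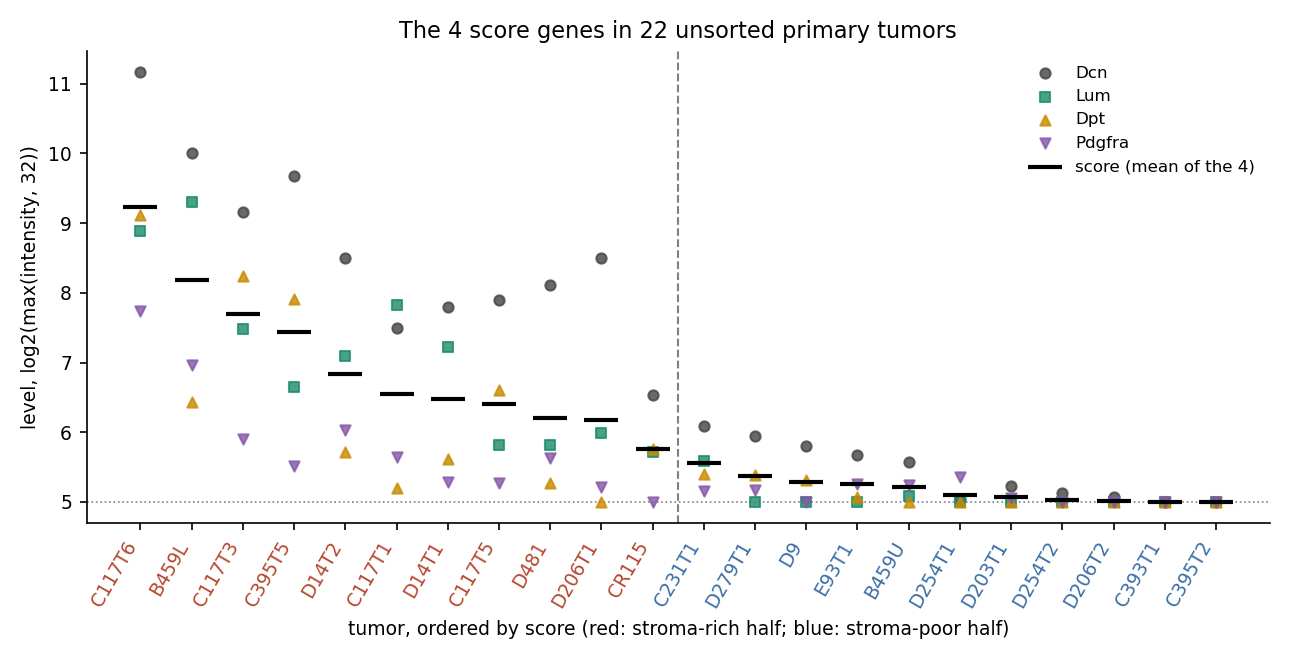
Level of Dcn, Lum, Dpt and Pdgfra (points, log2 of the floored intensity) and their mean, the score (black bar), in each of the 22 unsorted primary tumors, ordered by score. The score falls from 9.23 to 5.00, and the dashed line between CR115 and C231T1 parts the sets.

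Even in the stroma-rich tumors the score lay below that of normal tissue. The score was 10.37 to 11.25 in the 5 wild-type glands, above the highest tumor. Sorting for lacZ did not give the lowest scores. The 4 sorted hyperplasias scored 10.01 to 10.67, the 8 sorted primary tumors 6.00 to 10.52 and the 7 sorted transplanted tumors 5.60 to 8.87, so each of these 19 samples lay above the highest stroma-poor tumor. The 4 unsorted transplanted tumors scored 5.43 to 6.45, and the lowest of them, 5.43, was below C231T1.

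**Figure D2:**
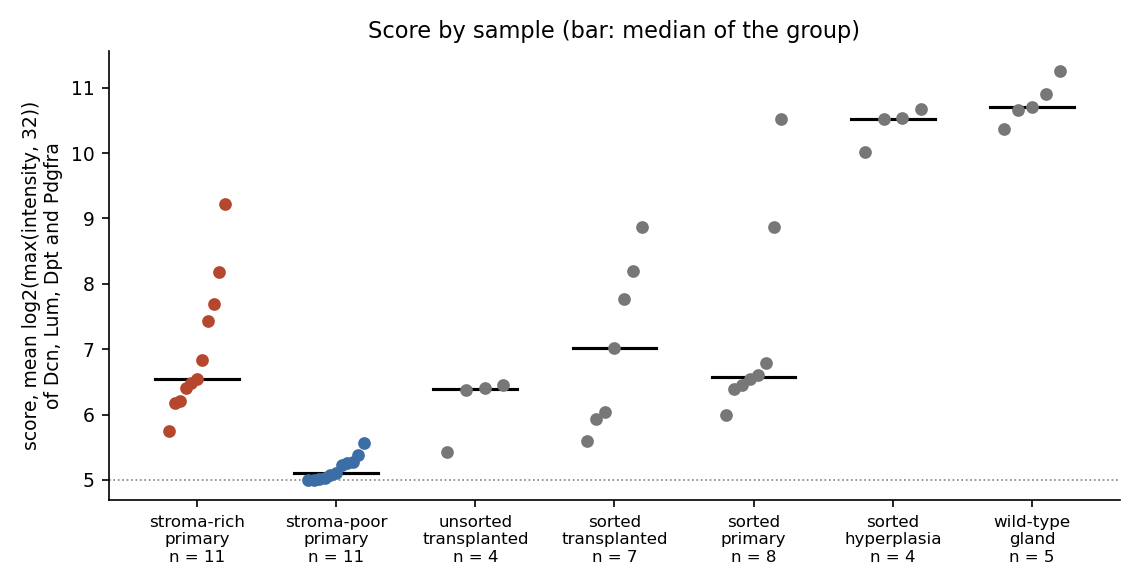
Score (mean log2 level of the 4 score genes) of each sample by group, with samples of a group spread by value and a bar at the group median. Stroma-poor tumors lie between 5.00 and 5.56, and wild-type glands and sorted hyperplasias lie above all 22 tumors.

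Markers of epithelium were high in all 22 tumors and overlapped between the sets. Epcam, an adhesion molecule of epithelial cells, ranged over 11.47 to 12.80 (median 12.20) in stroma-rich and 11.59 to 12.99 (median 12.31) in stroma-poor tumors, and the simple keratins Krt8 (0.22 ± 0.18) and Krt18 (0.01 ± 0.18) also overlapped. The log2 ratio of 3′ to 5′ probe sets of the Actb control had medians of 0.47 and 0.49 in stroma-rich and stroma-poor tumors, the array median intensity 50.1 and 51.9, and the share of values at the floor 38.1% and 37.2%. The spike-in controls BioB and BioC, which are bacterial transcripts added to each sample, were dimmer in stroma-rich tumors, with a median log2 level of 8.30 (7.67 to 8.96) against 8.83 (8.24 to 9.35), and the ranges overlapped; the part of this in the differences was not tested.

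Outside the score genes, 15146 genes were compared. Of these, 175 (1.16%) were at least 2-fold higher in the stroma-rich set and 39 (0.257%) at least 2-fold lower. The median difference over all genes was -0.01, and the 5th and 95th percentiles were -0.32 and 0.47. With a floor of 100 the counts were 76 and 21, and with tumors averaged per mouse 51 and 8. Averaging per mouse also changed the sets, because both tumors of mice B459, C395 and D206 then counted as stroma-rich. For 4 of the 175 genes every stroma-poor tumor was at the floor, so the size of their differences rests on where the floor was set. In 6 genes (0.0396%) every stroma-rich tumor lay above every stroma-poor one, and no gene had the opposite pattern. These 6 were the lysozyme genes Lyz1 and Lyz2, the stromal protease gene Mmp3, Ctsk, which encodes the collagen-cutting cathepsin K, and the leukocyte integrin genes Itgb2 and Itgam. Lyz1 and Lyz2 are near-identical copies, so their probe sets may not separate them. Lyz1 was at least 9.35 in stroma-rich and at most 9.31 in stroma-poor tumors, and its 2 other probe sets differed by 0.00 and 1.74. Itgam was at least 5.13 against at most 5.05, a difference of 0.76, with 2 of 11 stroma-poor tumors above the floor. Lyz1, Ctsk and Itgam were picked out after their values were seen. Scores that left out any 1 of the 4 genes gave the same sets.

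Among the 15 genes of largest positive difference were Col3a1, Col1a2, Col1a1, the microfibril gene Mfap5, Loxl1, the basement membrane gene Nid1 and Mxra8, a matrix remodelling-associated surface protein. The growth factor gene Mdk, Sparcl1, the chemokine genes Ccl6 and Ccl8, haptoglobin (Hp), the lipocalin Apod, the mucus protein gene Fcgbp and the bone matrix gene Dmp1 completed them. The plot of gene lists shows that collagen genes stood furthest from 0 as a group, that most stromal and myeloid lists leaned to the stroma-rich set, and that luminal, cell cycle and interferon lists leaned slightly the other way.

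**Figure D3:**
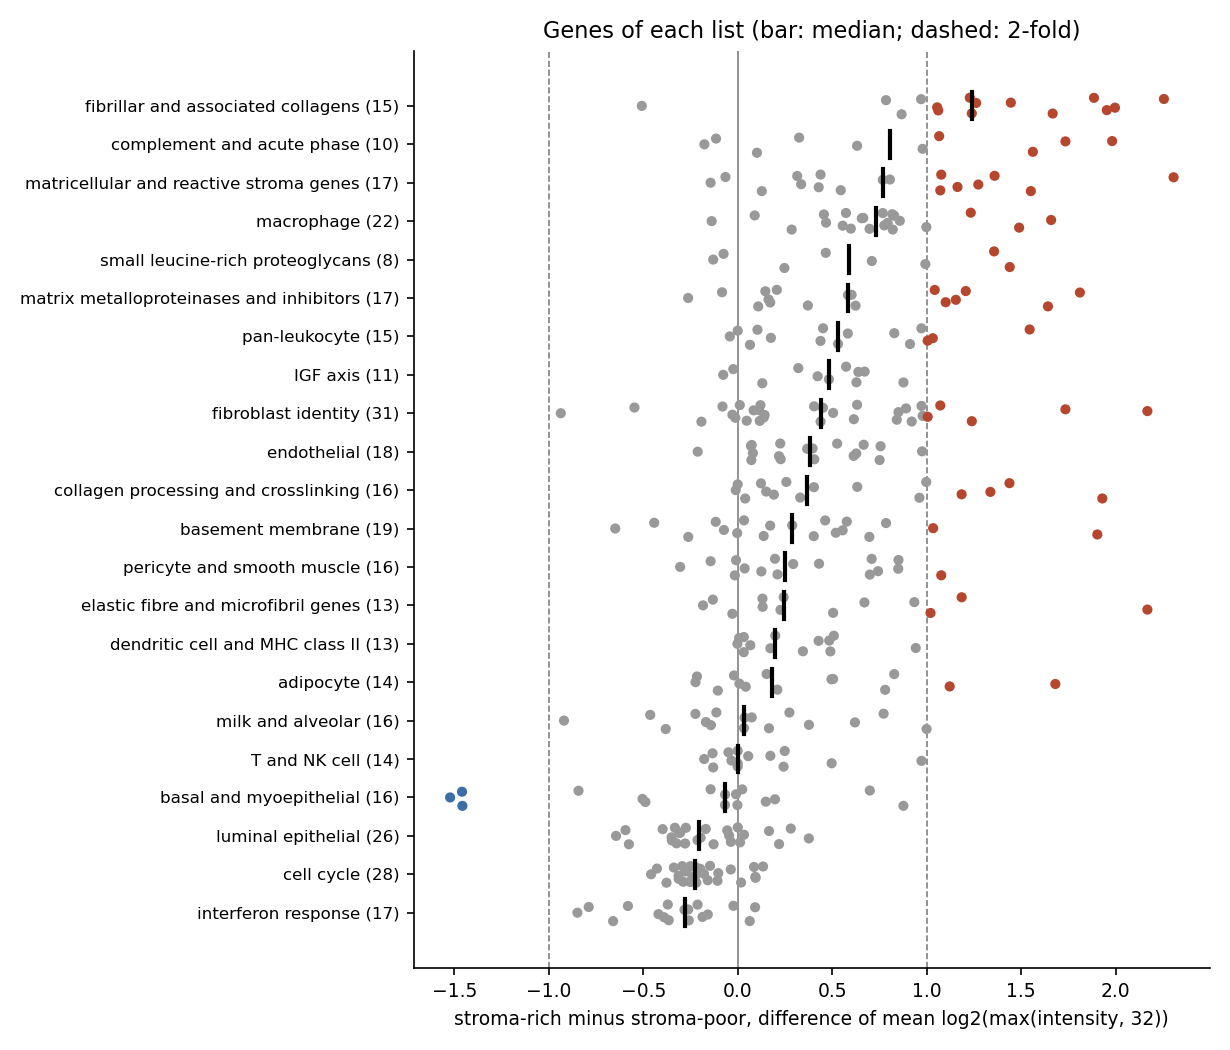
Difference of mean log2 level between stroma-rich and stroma-poor tumors for each gene (points) of 22 gene lists, with the number of genes in parentheses and a bar at the list median. Red and blue points are at least 2-fold higher and lower; the collagen list has the highest median, 1.24, and the interferon list the lowest, -0.28.

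Of 15 fibrillar and fibril-associated collagen genes, 11 were at least 2-fold higher in the stroma-rich set, 14 were higher at all, and their median difference was 1.24. Col1a1, a chain of type I collagen, ranged over 7.52 to 12.42 (median 9.71) in stroma-rich and 6.25 to 9.07 (median 7.87) in stroma-poor tumors, a difference of 1.95 ± 0.55 (SE, n = 11 tumors in each set). Its partner chain Col1a2 differed by 2.00 ± 0.49. Type III collagen, Col3a1, ranged over 9.45 to 13.32 (median 11.09) against 6.36 to 10.39 (median 9.12), a difference of 2.26 ± 0.50. Col12a1, whose product coats collagen fibrils, ranged over 5.42 to 10.03 (median 6.98) against 5.00 to 6.77 (median 5.78), and Col5a1, which sets fibril diameter, differed by 1.67 ± 0.44. The sets overlapped in each of these 5 genes. The spread lay inside the stroma-rich set: Col1a1 reached 12.42 in B459L, 12.16 in C117T6 and 11.21 in D14T2, but was 8.05 in C117T3, 8.07 in C117T5, 7.52 in CR115 and 8.85 in D481, within the stroma-poor range. In wild-type glands Col1a1 was 10.11 to 11.41, below B459L and C117T6. The 1 member that was lower, Col16a1 (-0.51), is named after its value was seen.

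The stretch upstream of Col1a2 is shown because this gene was among the most different collagen genes. It is the 120 bases before the RefSeq start, GRCm38.p6 chr6:4505498-4505617, plus strand, with a CCAAT motif, the sequence read by CCAAT-binding factors, in capitals.
Col1a2: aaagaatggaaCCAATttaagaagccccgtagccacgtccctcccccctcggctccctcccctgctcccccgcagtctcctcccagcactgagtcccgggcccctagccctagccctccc
The motif starts 109 bases before the start, on the same strand. Its reverse complement ATTGG also begins at the start itself, outside the printed bases. CCAAT or ATTGG is present in 37.4% of the 32851 promoters of 300 bases in that table. A match describes letters, not a site in use.

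Genes that modify and join collagen gave fewer large differences. Of 16, 4 were at least 2-fold higher and the median difference was 0.37. Loxl1, a lysyl oxidase that crosslinks elastic and collagen fibres, was at 5.18 to 9.85 (median 7.11) in stroma-rich tumors and above the floor in 1 of 11 stroma-poor tumors, a difference of 1.93 ± 0.44. A second probe set of Loxl1 differed by 0.21. The lysyl hydroxylase gene Plod1 differed by 1.44 ± 0.45 but its other probe set by -0.02, and Pcolce, an enhancer of procollagen cleavage, by 1.34 ± 0.37. Of 8 proteoglycan genes other than the 2 in the score, Aspn (1.44 ± 0.45) and Bgn (1.36 ± 0.37) were at least 2-fold higher, and the median was 0.59. Biglycan (Bgn) ranged over 9.32 to 12.74 (median 10.78) against 8.13 to 10.43 (median 9.82), with overlap. Among 13 elastic fibre and microfibril genes, 3 were at least 2-fold higher, with Mfap5, a microfibril protein, first. It ranged over 5.93 to 10.01 (median 7.24) against 5.00 to 6.41 (median 5.20), a difference of 2.17 ± 0.40.

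The wider list of fibroblast identity genes, 31 without the score genes, had 5 members at least 2-fold higher, 25 that were higher at all and a median of 0.44. The 5 were Mfap5, the complement inhibitor gene Serping1, the type VI collagen gene Col6a3 (1.24 ± 0.36), the membrane protease gene Fap (1.07 ± 0.27) and Vim. Another 6 members were lower, the lowest at -0.94. The mean of the list overlapped between the sets, at 6.30 to 7.72 in stroma-rich and 5.99 to 6.58 in stroma-poor tumors. Some genes stand in more than 1 list. Mfap5 and Fap, for example, are each counted in 2 lists.

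Of 17 genes of matricellular proteins and reactive stroma, 7 were at least 2-fold higher, with a median of 0.77. Sparcl1, a relative of the collagen chaperone Sparc, ranged over 7.72 to 12.87 (median 9.63) against 6.11 to 10.50 (median 7.74). Cthrc1, a secreted protein of activated fibroblasts, was at 5.82 to 10.17 (median 6.85) against 5.22 to 6.19 (median 5.42), with C117T6 highest. Tenascin C (Tnc) differed by 1.16 ± 0.39 and periostin (Postn) by 1.27 ± 0.48. Fibronectin (Fn1) differed by 1.36 ± 0.74, but its highest level of all 22 tumors, 12.84, was in the stroma-poor tumor C231T1, and its difference became -0.050 when tumors were averaged per mouse. For Fn1 and Tnc a second probe set differed by -0.01 and -0.09. Sparc itself differed by 0.81 ± 0.30. Acta2, smooth muscle actin, which marks both myofibroblasts and myoepithelium, ranged over 9.89 to 11.53 (median 10.75) against 10.49 to 11.10 (median 10.93) and differed by -0.14 ± 0.17. Vimentin (Vim), an intermediate filament of mesenchymal cells, differed by 1.01 ± 0.30.

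Enzymes that cut matrix, and their inhibitors, leaned the same way. Of 17, 6 were at least 2-fold higher and the median was 0.58. Mmp3, or stromelysin, was above the floor in all 11 stroma-rich tumors (5.44 to 7.91, median 6.43) and in 1 of 11 stroma-poor tumors, where it reached 5.14. The difference was 1.64 ± 0.29 and the sets did not overlap. Levels were highest in the 4 tumors of highest score, C117T6 (7.89), B459L (7.64), C117T3 (7.91) and C395T5 (7.44), yet below the wild-type glands (8.87 to 9.63). Mmp13, a collagenase, ranged over 5.00 to 10.64 (median 7.05) against 5.00 to 6.34 (median 5.00), and was highest in D14T2 (10.64) and C117T6 (9.14). Unlike Mmp3 it was at the floor in all 5 glands. The inhibitor gene Timp1 differed by 1.21 ± 0.37, and Mmp12, the macrophage elastase, differed by 1.15 ± 0.50.

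The upstream stretches of Mmp3 and Mmp13 are shown because both genes lie on chromosome 9, both differed by over 2-fold, and both hold the sequence bound by AP-1 (Fos and Jun) close to their start. Each is the 120 bases before the RefSeq start in GRCm38.p6, plus strand, chr9:7445702-7445821 for Mmp3 and chr9:7272394-7272513 for Mmp13, with TGAGTCA or its reverse complement TGACTCA in capitals.
Mmp3: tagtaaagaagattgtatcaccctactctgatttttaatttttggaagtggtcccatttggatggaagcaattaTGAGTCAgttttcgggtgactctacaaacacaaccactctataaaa
Mmp13: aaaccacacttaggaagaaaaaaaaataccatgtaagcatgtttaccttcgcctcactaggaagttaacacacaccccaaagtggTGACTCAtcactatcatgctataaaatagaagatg
The motif begins 46 bases before the start in Mmp3 and 35 in Mmp13. It is present on either strand in 5.2% of the 32851 promoters of the table. A match describes the letters only. The AP-1 gene Fos differed by 0.05 ± 0.41 between the sets, and of 22 immediate early genes none was 2-fold apart, with a median of -0.04. These are RNA levels, and whether AP-1 acts on Mmp3 or Mmp13 in these tumors was not tested.

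Basement membrane and vessel genes were higher by less. Of 19 basement membrane genes, Nid1 (1.90 ± 0.50) and Col4a2 (1.03 ± 0.30) were at least 2-fold higher, and the median was 0.29. In that list 6 genes were lower, the lowest at -0.65. Nidogen 1 (Nid1), which links laminin to type IV collagen, was highest in D14T2 (10.64) and D14T1 (10.50). None of 18 endothelial genes was 2-fold apart, but 17 were higher in the stroma-rich set, with a median of 0.38. Plvap, a protein of fenestrated capillaries, ranged over 5.53 to 8.05 (median 6.58) against 5.35 to 6.17 (median 5.62), and the junction gene Cdh5 differed by 0.76 ± 0.28. The mean of the endothelial list was 7.45 in C117T6 and 6.95 in B459L, and from 5.78 to 6.31 in the stroma-poor tumors. Pecam1, another endothelial marker, was above the floor in 2 of 11 stroma-rich and 0 of 11 stroma-poor tumors on its probe set. Of 16 pericyte and smooth muscle genes, 1 was at least 2-fold higher, 4 were lower and the median was 0.25. Rgs5, a pericyte marker, differed by 0.85 ± 0.30.

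In the list of fibroblast growth factors and other ligands, midkine (Mdk), a heparin-binding growth factor, had the largest difference of all genes outside the score, 2.62 ± 0.65. It ranged over 5.00 to 11.46 (median 7.31) in stroma-rich tumors and did not exceed 5.43 in stroma-poor ones. It was high in B459L (11.46), C117T3 (10.31), C117T1 (9.09) and D14T1 (9.07) but 5.01 in C395T5 and 5.00 in C117T5, so it did not order the tumors as the score did. In the sorted hyperplasias, which scored 10.01 to 10.67, Mdk was 5.25 to 6.59. In the sorted primary tumor F464T, which scored 6.79, it was 10.35. Which cells made it was not tested. Cxcl12, the ligand of Cxcr4, differed by 1.63 ± 0.46, though its other probe sets ranged from -0.18 to 0.24, and Cxcl14 by 1.59 ± 0.34. The other 16 of the 19 ligand genes were less than 2-fold apart and the list's median was 0.02. Of 11 genes of the insulin-like growth factor (IGF) axis none was 2-fold apart, with a median of 0.48. Igf1 differed by 0.32 ± 0.49 and Igf2 by 0.57 ± 0.52, both with wide overlap. Of 18 TGF-beta genes none was 2-fold apart, 10 were higher and 8 lower, and the median was 0.10. Differences in that list ran from -0.45 to 0.57, with the ligand gene Tgfb1 at 0.57 ± 0.20. Of 19 Wnt genes, the antagonist gene Sfrp1 was higher (1.37 ± 0.56), while Wif1 (-1.52 ± 0.77), another antagonist, and the ligand gene Wnt4 (-1.03 ± 0.27) were lower.

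Macrophage genes lay to the stroma-rich side as a group. Of 22, 21 were higher in the stroma-rich set, 3 at least 2-fold, and the median was 0.73. Mrc1, the mannose receptor of tissue macrophages, ranged over 5.97 to 9.63 (median 7.56) against 5.36 to 6.51 (median 5.99), a difference of 1.66 ± 0.34. Lyz2 ranged over 9.56 to 12.30 (median 10.46) against 8.50 to 9.40 (median 9.24), with no overlap, and the Fc receptor gene Fcgr3 differed by 1.23 ± 0.31. Adgre1, a surface receptor of mature macrophages, differed by 0.86 ± 0.17 and Cd68, a lysosomal glycoprotein, by 0.78 ± 0.20. By tumor, the mean of the macrophage list was highest in C117T5 (9.22), C117T6 (9.21) and C395T5 (8.93), and 3 stroma-rich tumors fell inside the stroma-poor range of 7.22 to 8.06. The lacZ-sorted hyperplasias, at 9.50 to 10.75, were above all 22 tumors. Ccl8, a chemokine that attracts monocytes, ranged over 7.56 to 11.59 (median 9.36) against 6.57 to 8.05 (median 7.06). Ccl6, another chemokine of myeloid cells, ranged over 6.06 to 10.73 (median 7.34) against 5.00 to 6.24 (median 5.67).

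Pan-leukocyte genes showed the same side, with 3 of 15 at least 2-fold higher and a median of 0.53. Cd53, a leukocyte tetraspanin, differed by 1.55 ± 0.23 and Ptprc, which encodes CD45, by 1.03 ± 0.24; a second probe set of each differed by 0.00 and -0.02. Itgb2, the shared integrin chain of leukocytes, did not overlap, at 6.65 to 8.36 (median 7.21) against 5.76 to 6.61 (median 6.32). Lymphoid genes gave little. No member of the 14 T and NK cell genes was 2-fold apart and their median was 0.00. The 15 B and plasma cell genes had a median of 0.01, and only Jchain, the joining chain of secreted antibodies, was at least 2-fold higher (1.59 ± 0.52), with C117T3 at 9.84 and C395T5 at 8.91. Of 16 monocyte, neutrophil and mast cell genes, S100a9 (1.64 ± 0.50) and S100a8 (1.05 ± 0.62) were at least 2-fold higher and the median was 0.05. Of 13 dendritic cell and MHC class II genes none was 2-fold apart, with a median of 0.20. Of 10 complement and acute phase genes, 4 were at least 2-fold higher, with a median of 0.81: Hp (1.98 ± 0.78), Serping1 (1.73 ± 0.33), Saa3 (1.56 ± 0.48) and Cfb (1.07 ± 0.49). Serping1, the C1 inhibitor gene, ranged over 7.40 to 10.51 (median 8.47) against 5.70 to 7.70 (median 6.86).

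Some of the largest differences came from genes whose levels did not order the tumors as collagen did. Apod, a lipid-carrying lipocalin, ranged over 6.21 to 11.98 (median 7.18) against 5.00 to 8.46 (median 5.60), a difference of 2.32 ± 0.68. It was highest in D206T1 (11.98) and C117T3 (11.70), and D206T1 also had the highest Fcgbp (13.11), Dmp1 (11.11) and Hp (12.38). Fcgbp, a mucus protein, ranged over 5.00 to 13.11 (median 9.74) against 5.17 to 9.42 (median 6.63), with B459L at the floor. Dmp1, an acidic phosphoprotein of bone matrix, was 11.08 in D14T2, at most 6.68 in the stroma-poor tumors and at the floor in all 5 wild-type glands. Haptoglobin (Hp), an acute phase protein that binds haemoglobin, overlapped widely, with the stroma-poor tumor E93T1 at 12.22. Mxra8 was nearer to the collagens, with its highest levels in D14T2 (10.92), D14T1 (9.71) and C117T6 (9.30). Cathepsin K (Ctsk), which also cuts collagen, ranged over 5.41 to 8.28 (median 6.42) against 5.00 to 5.39 (median 5.22), without overlap, a difference of 1.24 ± 0.27.

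Fat cell genes were high in a few tumors only. Of 14, Fabp4 (1.68 ± 0.69) and Car3 (1.12 ± 0.68) were at least 2-fold higher and the median was 0.18. Adipoq, the hormone of mature fat cells, was above the floor in 3 tumors, C117T3 (9.93), C395T5 (7.80) and C117T6 (5.85), all stroma-rich. Car3, a carbonic anhydrase abundant in fat, reached 11.55 in C117T3 and 9.31 in C395T5, and Fabp4, the fatty acid carrier of fat cells and capillaries, 11.52, 9.90 and, in C117T6, 10.95. The difference of Adipoq was 0.78 ± 0.49, with most stroma-rich and all stroma-poor tumors at the floor, so its size rests on the floor. C117T3 and C395T5 were not collagen-rich. The mean of the collagen list was 7.46 in C117T3 and 7.66 in C395T5, against a highest stroma-poor value of 7.47, although their scores were 7.70 and 7.43 and their Dpt levels of 8.24 and 7.91 were exceeded only by C117T6. The collagen list was highest in C117T6 (10.36), B459L (10.13), D14T2 (9.06), C117T1 (8.43) and D14T1 (8.41). Tumors of high score thus differed in which of the collagen, fat cell and macrophage lists were high.

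**Figure D4:**
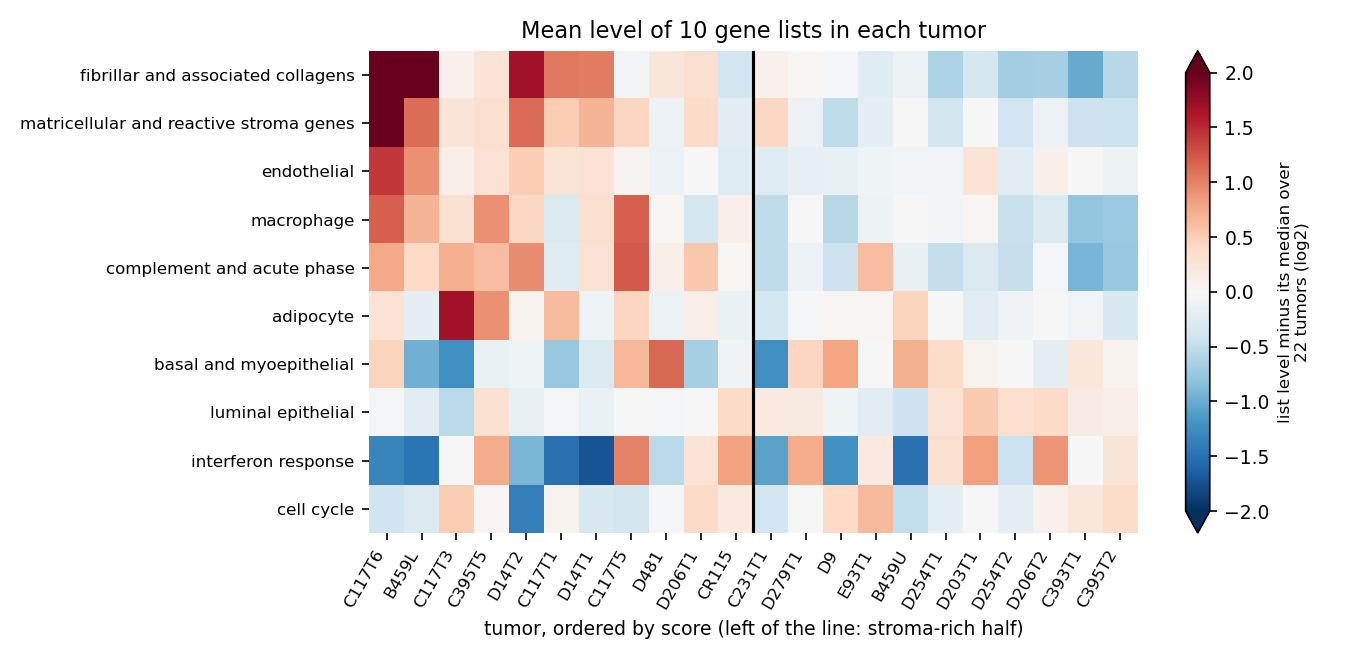
Mean log2 level of 10 gene lists in each tumor, relative to the median of that list over the 22 tumors (colour, cut at -2 and 2), with tumors ordered by score. Collagen genes are high in C117T6, B459L, D14T2, C117T1 and D14T1, fat cell genes in C117T3 and C395T5, and macrophage genes in C117T6, C117T5 and C395T5.

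Genes of the epithelium were mostly near equal or somewhat lower in the stroma-rich set. Of 26 luminal genes none was 2-fold apart, 7 were higher, and the median was -0.20. Cdh1, the epithelial cadherin gene, differed by -0.28 ± 0.21. The median of 16 milk genes was 0.03, with Csn2, the beta-casein gene, at -0.22 ± 0.23 and Wap at 0.07 ± 0.48. Csn2 was close to 13.44 in most tumors and lowest in B459L, at 11.20.

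The 39 genes that were at least 2-fold lower included several of basal epithelium, the outer layer of the mammary duct. Of 16 basal and myoepithelial genes, 3 were at least 2-fold lower, all keratins: Krt17 (-1.52 ± 0.72), Krt5 (-1.46 ± 0.76) and Krt6a (-1.46 ± 0.83). Of the 16, 5 were higher, the highest at 0.88, and the list's median was -0.07. Krt14, the partner of Krt5, differed by -0.49 ± 0.54. A second probe set of Krt17 differed by 0.02. Id4, an inhibitor of helix-loop-helix factors found in basal mammary cells, was the lowest of all, at 5.00 to 10.99 (median 7.82) against 6.10 to 10.93 (median 9.99), a difference of -2.15 ± 0.74, and its other 2 probe sets differed by -2.26 and -2.21. Col17a1, a hemidesmosome collagen of basal cells, ranged over 5.00 to 9.31 (median 5.53) against 5.00 to 9.33 (median 8.32). The BMP antagonist gene Sostdc1 (-1.69 ± 0.76), the activin-binding gene Fst (-1.47 ± 0.52) and Trim29 (-1.41 ± 0.66), a gene of squamous and basal epithelia, were lower too.

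Single tumors of each set lay at both ends of these genes' range. Krt5 was 5.71 in C117T1, 5.96 in C117T3, 6.47 in B459L and 6.66 in D14T1, but 11.45 in D481 and 10.81 in C117T5, which were stroma-rich as well. Among stroma-poor tumors, C231T1 was low in Krt5 (5.84), Krt17 (5.00), Id4 (6.10) and Col17a1 (5.00), and the other 10 had Krt5 of 9.23 or more. The number of lower genes was the least steady count. It was 25 without the 4 tumors of mouse C117, 8 with tumors averaged per mouse, and 90 with CR115 taken from its second array. That array moved CR115 to the stroma-poor set and, in exchange, C231T1 to the stroma-rich set. Ly6d (-1.15 ± 0.82) and Krt79 (-1.47 ± 0.76) changed sign, to 0.43 and 0.051, with tumors averaged per mouse.

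Surface and secreted proteins of the epithelium were also among the largest negative differences: Muc4, a membrane mucin (-1.58 ± 0.56), Sftpd, a secreted lectin (-1.59 ± 0.68), Ildr2 (-1.55 ± 0.56) and Cwh43 (-1.35 ± 0.59). The interferon-induced gene Oas2 differed by -1.40 ± 0.62. Of 17 interferon response genes none was 2-fold apart, 15 were lower, and the median was -0.28, yet both sets held tumors at either end: the list's mean was 9.39 in C117T5 and 6.68 in D14T1, both stroma-rich, and 9.29 in D206T2 and 6.91 in B459U, both stroma-poor. Of 28 cell cycle genes none was 2-fold apart, with a median of -0.22, and Mki67 differed by -0.22 ± 0.21. Its level was lowest in the stroma-rich set at 8.16 and in the stroma-poor set at 8.87. Of 18 hypoxia and glycolysis genes none was 2-fold apart (median 0.14). Lists for lymphatic vessels, nerve, skeletal muscle, red blood cells and the Hedgehog pathway had no member 2-fold apart. Among 11 mesenchymal transition genes only Vim was, and among 11 cartilage-type genes only Col11a1 (1.30 ± 0.60). Of 17 cytokine and chemokine genes only Ccl8 was 2-fold apart. Of 9 hormone-sensing luminal genes, Wnt4 and Ly6d were at least 2-fold lower. The fusion partner genes differed by -0.49 ± 0.21 for Etv6 and -0.05 ± 0.15 for Ntrk3, on probe sets whose position relative to the fusion is not known here.

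Mice with tumors in both sets allow the same genes to be compared with the animal held constant. However, these tumors are among those that defined the sets and from which the 175 and 39 genes were picked. Part of the lean in the same direction was therefore built in. In mouse B459, 140 of the 175 stroma-rich genes were higher in the stroma-rich tumor B459L than in B459U, 103 of them at least 2-fold. In mouse C395 the numbers were 160 and 84 (C395T5 against C395T2), and in mouse D206 146 and 78 (D206T1 against D206T2). Over all 15146 genes, 7187, 8276 and 5985 were higher in these pairs, and 695, 334 and 353 at least 2-fold. Of the 39 genes lower in the stroma-rich set, 32 were lower in B459, 19 in C395 and 35 in D206, with 26, 7 and 29 at least 2-fold. The content of the difference varied between the mice. The median of the collagen list was 3.13 in B459, 0.61 in C395 and 0.85 in D206, whereas that of the macrophage list was 0.77, 1.89 and -0.09. Col1a1 differed by 4.90, 0.95 and 1.99, and Mrc1 by 1.81, 2.68 and 0.62. Each pair is 1 tumor against another, so these values carry no replicate error.

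A separate measure of the same genes came from samples that had no part in the score. Unsorted transplanted tumors (4, from 2 mice) were compared with sorted transplanted tumors (7, from 5 mice) in a limma fit of the 28 samples outside the 22 primary tumors, in which the mouse a sample stems from was a random block. No array was shared, but mice CR115 and D279 gave both transplants and primary tumors. It sets whole tumor tissue against cells sorted for the reporter, but by the score it does not set more stroma against less. The score had a median of 6.39 in unsorted and 7.01 in sorted transplanted tumors. The 4 score genes had a median difference of -1.18, and none of them was called. The counts that follow therefore cannot tell whether the 175 genes follow the amount of stroma. Of 15137 genes, 1170 (7.73%) were higher and 455 (3.01%) lower in unsorted tissue at a Benjamini-Hochberg adjusted p under 0.05. The lower count was 282 without replicate 2 of the unsorted tumors, and the counts were 2329 and 1252 with no block for the mouse. Of the 175 stroma-rich genes, limma called 0 higher and 5 lower (2.86%), against 4 higher (2.29%) and 20 lower (11.4%) at an unadjusted p under 0.05. Over all genes those shares were 16.9% and 9.77%, so the lower share was near that of all genes and the higher share was below it. Their median difference was -0.40, that of all genes 0.00, and 116 of the 175 were below 0. Under the other settings tried, between 0 and 4 of the 175 were called higher.

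Of the collagens, Col1a1 was 9.61 to 9.90 in unsorted and 7.83 to 11.29 in sorted transplanted tumors (0.10 ± 0.73, limma adjusted p = 0.951). Col3a1 gave -0.65 ± 0.72 and Mrc1 -1.30 ± 0.99, and neither passed. None of the 15 collagen genes was called in either direction, and their median was 0.10. The pericyte gene Rgs5 was higher in unsorted tissue (2.17 ± 0.65, adjusted p = 0.0328 by limma) and the proteoglycan gene Prelp lower (-1.34 ± 0.38, adjusted p = 0.0244), although each had been less than 2-fold higher in the stroma-rich set. Both calls rest on the settings. Rgs5 gave 0.81 (limma adjusted p = 0.337) with the mean of its probe sets, and it was not called without replicate 1 (limma adjusted p = 0.057) or without replicate 2 of the unsorted tumors. Prelp gave -1.14 (limma adjusted p = 0.0976) in the fit over all 50 replicates. The 5 stroma-rich genes that were lower in unsorted tissue were Klhl13, Lao1, Plagl1, the unnamed transcript 3830417A13Rik and Tnfaip2, a TNF-induced gene (-3.11 ± 0.63, limma adjusted p = 0.00249). Of the 39 genes lower in stroma-rich tumors, limma called 2 higher in unsorted tissue (5.13%), the desmosome gene Dsc2 (1.89 ± 0.55, limma adjusted p = 0.029) and the long noncoding RNA Neat1, and 3 lower (7.69%), Oas2, Phf11d and Pigr. Oas2 was not called with a floor of 100, in the fit over these 2 groups alone or without replicate 2 of the unsorted tumors. The genes of these counts were picked out after their values were seen, and apart from Oas2 they were not recomputed under the alternatives. Immediate early genes were lower in unsorted tissue, 18 of 22 by the same test, and 12 of 28 cell cycle genes were higher, so sorted and unsorted samples also differed in genes that did not separate the sets. Of 17 interferon response genes 4, and of 17 cytokine and chemokine genes 6, were lower. The T cell, B cell, macrophage and neutrophil lists had at most 1 member called.

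**Figure D5:**
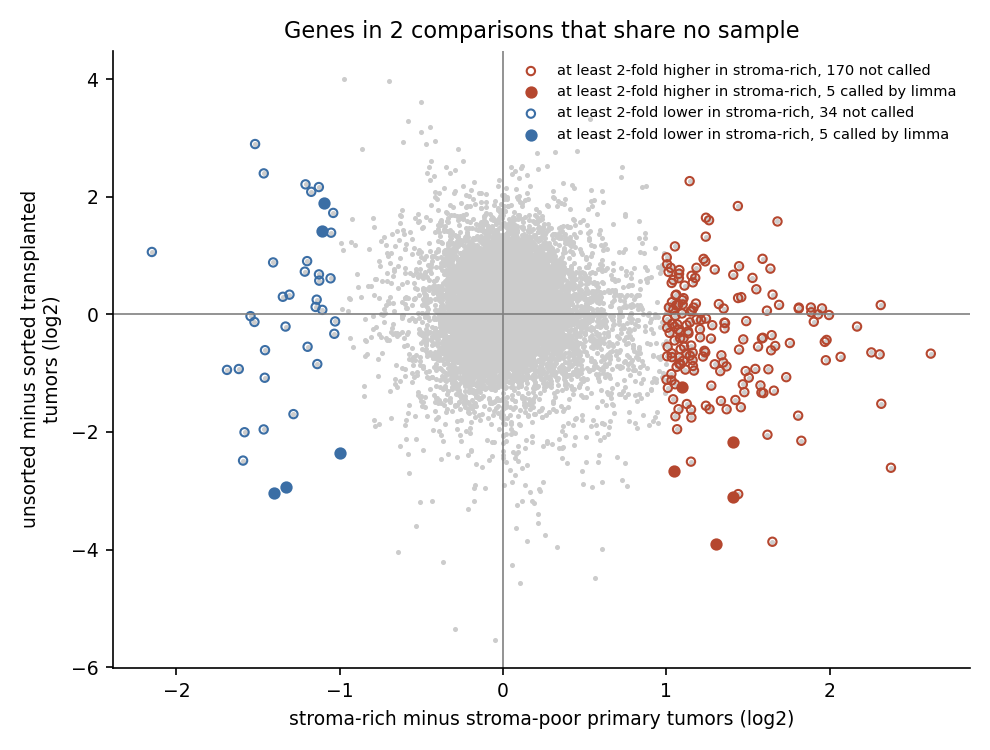
Each gene's difference between stroma-rich and stroma-poor primary tumors (x axis, log2) against its difference between unsorted and sorted transplanted tumors (y axis, log2), with all tested genes in grey. The 175 genes at least 2-fold higher in the stroma-rich set (red) lie on both sides of 0 on the y axis with a median of -0.40, and filled points are the genes called by limma.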

How the data were processed

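Total RNA was extracted with Trizol and cleaned on columns, and biotin-labelled cRNA was hybridized to Affymetrix mouse MOE430.2 arrays, per the labels' protocols. The values deposited by the authors are linear intensities of probe sets; their summary method and scaling between arrays are not given in the sources used here. That scaling was kept. Intensities below 32 (37.4% of values) were set to 32 before log2, and 1 probe set with values far above the rest was left out.

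Gene symbols came from the platform annotation, updated by Entrez identifier with the RefSeq table of GRCm38.p6. Of 45101 probe sets, 34944 had 1 symbol, 932 several and 9160 none listed. Each gene was taken from its probe set of highest mean over all arrays, and 15150 of 18192 genes lay above the 40th percentile of their array on at least 4 arrays. No level of one probe set was compared with that of another.

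The 22 tumors were split at the middle of the score, a split made from measured values, so differences of means are given with SE and no test. SE treats the tumors as separate although some share a mouse. The members and gene lists were chosen with earlier results of these data known. Named genes were the 15 largest differences in each direction with a mean in the higher set above the overall probe set median, leaving out transcripts with no established name, the 5 largest of each list, and a fixed set of matrix, epithelial, vessel, fat and leukocyte genes. Unsorted and sorted transplanted tumors were compared with limma 3.58.1 (R 4.3.3; lmFit, duplicateCorrelation over mice with consensus correlation 0.57, eBayes), with Benjamini-Hochberg adjustment and calls under 0.05. The p-values rest on a spread estimated over all 28 samples of the fit, in 5 groups, several of which share a mouse of origin. A fit over the 2 groups of transplanted tumors alone called 969 genes higher and 336 lower. In simulated data with known changes the fit recovered 32 of 100 genes changed 2-fold and 88 of 100 changed 4-fold. Alternatives were another floor, pseudocount, probe set rule, normalization, filter, score, split, averaging per mouse, each CR115 array alone, other fits, and left-out samples. The number of arrays, and dim probe sets at the floor, limit the precision. Promoter sequences are from RefSeq.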

Additional observations from a re-analysis of the deposited data

Results flagged for a closer look

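In the 4 unsorted transplanted tumors, the score of the tumor grown in host 4 from mouse CR115 was 5.43, while the other 3 scored 6.37 to 6.45. Its gap to the nearest of the others, divided by the range of the group, was 0.92, above Dixon's limit of 0.829 for 4 samples. Chance flags about 1 in 20 groups, and 1 of 40 groups tested was set apart here. Without any 1 of these tumors the number of stroma-rich genes called higher in unsorted tissue stayed between 0 and 2.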

How the results depend on the processing

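Recomputed counts stayed within 1.5 times of the reported ones for 93 values and moved further for 21. The number of genes at least 2-fold higher in the stroma-rich set was 175, and became 76 with a floor of 100, 306 for the highest 7 against the lowest 7 tumors, and 51 with tumors averaged per mouse, where 47 of the 175 still passed and 172 kept their sign. The number lower was 39, and became 21 with a floor of 100, 25 with the mean of a gene's probe sets, 127 for 7 against 7 tumors, 8 per mouse, 66 within mice with tumors in both sets and 90 with CR115 from its second array alone. Alternatives added after seeing the data gave 25 lower genes without mouse C117, and, with each tumor left out in turn, at least 136 higher genes (without D14T2) and from 30 (without C117T3) to 56 (without CR115) lower ones. Averaging per mouse turned the sign of Fn1 (-0.050), Ly6d (0.43) and Krt79 (0.051). It also moved the stroma-poor tumors of mice B459, C395 and D206 to the stroma-rich side, so it changed more than the weight of each mouse. In the comparison of unsorted with sorted transplanted tumors, dropping the block for the mouse gave 2329 higher and 1252 lower genes, all 50 replicates gave 1761 and 891, and a floor of 100 gave 242 lower. Of the 175 stroma-rich genes, the number called higher was 4 without the mouse block, 1 over all replicates, 1 over these 2 groups alone, 2 with a floor of 100, and between 0 and 2 when each unsorted transplanted tumor was left out. Leaving out each of these tumors gave 856 to 1211 higher and 282 (without replicate 2) to 499 lower genes over all. No paired analysis was possible because the unsorted and sorted transplanted tumors share no mouse of origin, and their numbers in the labels name tumors, recipients and passages; mouse of origin served as the block over all groups. Between the sets, the 3 mice with tumors in both gave the within-mouse differences. The cause of these changes was not tested. The size of differences of genes near the floor rests on where the floor was set, and each set holds tumors of shared mice.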

Other observations

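Tumor C231T1, the highest score of the stroma-poor set and picked out after its values were seen, stood apart in genes that the score does not hold. Its Fn1 level, 12.84, was the highest of the 22 tumors, as were Col11a1, a cartilage-type fibrillar collagen (10.29), Plod2, a lysyl hydroxylase (10.30), Comp, a cartilage matrix protein (7.72), and Acta1, skeletal muscle actin (7.80). The means of the cartilage-type list (7.70) and of the skeletal muscle list (6.71) were highest in this tumor too. Its basal keratins were low, with Krt5 at 5.84 and Krt17 and Krt6a at 5.00, the floor, as was Trim29 at 5.00. These are values of 1 tumor on 1 array, with no replicate.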
